A study of Mus musculus with 8 samples.

Results

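The genes described here carry the IL-1 and IL-6 cytokine signals and the adhesion of leukocytes to vessel walls: Il1r1, Il1rap, Il1b, Casp1, Il6, Il6st, Osmr, Lif, Vcam1 and Icam1. They are 10 of the 26667 genes in the count table, found by symbol, and they were selected on their levels in these same tumours and the difference between the groups, so the difference of each is given as a description with no test, and counts of them past a threshold describe the choice. RNA was sequenced from sections of hind limb undifferentiated pleomorphic sarcoma (UPS), a soft tissue tumour of mesenchymal cells, in 4 KP and 4 KPH2 tumours, to ask what the loss of HIF-2α, the hypoxia-inducible factor encoded by Epas1, changes in the tumour. Trp53 fl/fl was among the alleles that both groups carried, and KPH2 tumours had Epas1 fl/fl in addition, all on a mixed 129/C57BL/6 background. In both groups an adenovirus carrying Cre was injected into the limb muscle of adult mice, so the alleles recombine in infected cells, and host cells that were not infected keep Epas1. The libraries were made from fixed, paraffin-embedded tissue after depletion of ribosomal RNA, 1 library per tumour.

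IL-1 acts through a receptor made of the binding chain Il1r1 and the accessory chain Il1rap, which passes the signal to NF-kB. Its ligand IL-1β is made as a precursor and cut by caspase-1. IL-6, LIF and oncostatin M act through receptors that share the gp130 chain encoded by Il6st and signal by JAK kinases and STAT3. VCAM-1 and ICAM-1 are surface proteins, induced by inflammatory cytokines on endothelium and other cells, that bind integrins of leukocytes.

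Total counts per tumour ran from 6463221 to 13155510. Levels are given as CPM, counts per 1e+06 of the library size scaled by TMM, which corrects for composition, with the tumours of a group listed in numerical order. Epas1, the deleted gene, was at 59.2, 83.2, 86.9 and 84.1 CPM across KP 5 to 8 and at 32.6, 53.4, 37.7 and 42.5 CPM across KPH2 1 to 4, below every KP tumour, and its difference did not pass the test (log2 fold change -0.81, SE 0.19, edgeR adjusted p = 0.0742). KPH2 1 stood apart: the study left 1 knockout library out as a technical outlier, and KPH2 1 is the one absent from its table of 7 tumours, so fold changes here compare KPH2 2 to 4 with KP unless stated, and KPH2 1 is shown beside them. Of the 14867 genes tested over these 7 tumours, 1.96% passed an adjusted p of 0.05 (1.24% higher and 0.720% lower in KPH2). With KPH2 1 included, 0.00675% of 14805 genes did. The labels number the tumours and name no mice, so p-values measure only the spread between these samples.

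Levels of the markers of other cells were compared between the groups. All 14 skeletal muscle markers had higher levels in KPH2 2 to 4, and 0 of 14 passed the edgeR test (14 at an unadjusted p under 0.05, 11 by DESeq2). Their summed level was 294 to 952 CPM in KP, 823 to 4360 CPM in KPH2 2 to 4 and 361 CPM in KPH2 1, which lay inside the KP range. All 11 macrophage markers were lower and 0 passed the edgeR test (5 at an unadjusted p under 0.05, 1 by DESeq2), with sums of 2450 to 4480 CPM in KP, 1800 to 2690 CPM in KPH2 2 to 4 and 2310 CPM in KPH2 1. Endothelial markers summed to 376 to 655 CPM in KP, 364 to 366 CPM in KPH2 2 to 4 and 275 CPM in KPH2 1. Of these 10, 8 were lower, and 0 passed the edgeR test (5 at an unadjusted p under 0.05, 4 by DESeq2). The 8 mesenchymal markers summed to 12600 to 24900 CPM in KP, 10000 to 17700 CPM in KPH2 2 to 4 and 10700 CPM in KPH2 1, so the labelled tissue had its markers in every tumour. Of these 8, 6 were lower, and Pdgfra fell by 2.02 on the log2 scale (edgeR adjusted p = 0.0183). With KPH2 1 included it was at -1.54 (edgeR adjusted p = 0.16), and with the muscle markers as a covariate at -2.39 (edgeR adjusted p = 0.111). With each tumour left out, Pdgfra passed in 6 of 7 fits. Neutrophil markers summed to 113 to 265 CPM in KP, 82.0 to 128 CPM in KPH2 2 to 4 and 253 CPM in KPH2 1, most of it from Mmp9, which other cells also make. Without Mmp9 the sums were 20.8 to 63.5 CPM, 13.1 to 36.5 CPM and 16.9 CPM, and Ly6g and Ltf had at most 3 counts in every tumour. T and B cell markers summed to 9.64 to 26.5 CPM in KP, 11.8 to 21.1 CPM in KPH2 2 to 4 and 5.59 CPM in KPH2 1. Adipocyte markers summed to 4.60 to 28.4 CPM in KP, 4.80 to 5.85 CPM in KPH2 2 to 4 and 9.43 CPM in KPH2 1. The part of these cells in the results that follow was not tested. A fit with the muscle markers as a covariate is given beside them. Since all 14 muscle markers were higher in KPH2 2 to 4, that fit cannot cleanly separate muscle content from genotype. Its standard errors were larger (for Lif 1.87, and 0.95 without the covariate). In whole tumours fewer cells of a type and less RNA per cell cannot be told apart.

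The IL-1 receptor chain Il1r1 was at 99.2, 125, 102 and 90.2 CPM across KP 5 to 8 and at 54.7, 47.7 and 43.6 CPM across KPH2 2 to 4. The groups did not overlap, and the lowest KP tumour was well above the highest of these 3 KPH2 tumours. The means were 104 ± 14.9 CPM (SD, n = 4) and 48.7 ± 5.62 CPM (SD, n = 3), a log2 fold change of -1.10 (SE 0.17). KPH2 1 held 111 CPM, inside the KP range, and with it the log2 fold change was -0.69 (SE 0.29). With the muscle score as a covariate it was -1.03 (SE 0.29). Il1r1 (Entrez Gene 16177) lies on chromosome 1 of GRCm38 from 40222480 to 40316201.

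Il1rap, the accessory chain, did not separate the groups. It was at 51.5, 161, 181 and 180 CPM across KP 5 to 8, at 97.6, 74.5 and 133 CPM across KPH2 2 to 4, and at 75.8 CPM in KPH2 1. KP 5 was the lowest of all 8 tumours and the other 3 KP tumours were the highest. The log2 fold change was -0.50 (SE 0.42) over 7 tumours and -0.59 over 8, and 0.36 (SE 0.58) with the muscle score as a covariate. It lies on chromosome 16 from 26581509 to 26730128.

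Il1b, the ligand, was at 3.49, 44.0, 22.4 and 34.1 CPM across KP 5 to 8, at 20.1, 2.20 and 21.5 CPM across KPH2 2 to 4, and at 8.39 CPM in KPH2 1. The low tumours were KP 5 and KPH2 3, one of each genotype, and the groups overlapped. The log2 fold change of -0.83 was smaller than its standard error of 0.88, and it was 0.95 (SE 1.29) with the muscle score as a covariate. It lies on chromosome 2 from 129364569 to 129371164.

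Casp1, whose protease cuts the IL-1β precursor, was at 7.28, 9.20, 5.78 and 11.8 CPM across KP 5 to 8 and at 3.87, 4.2 and 4.06 CPM across KPH2 2 to 4. KPH2 1 held 4.48 CPM, so all 4 KPH2 tumours lay below every KP tumour. The means were 8.51 ± 2.59 CPM (SD, n = 4) and 4.04 ± 0.167 CPM (SD, n = 3), and the log2 fold change was -1.08 (SE 0.29), or -1.04 (SE 0.26) with KPH2 1. The counts behind these levels were low, from 36 in KPH2 4 to 156 in KP 8. Casp1 lies on chromosome 9 from 5298517 to 5307281.

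Il6 was the member with the widest spread inside a genotype after Lif. It was at 0.594, 20.9, 8.45 and 1.81 CPM across KP 5 to 8, at 4.59, 0.400 and 1.35 CPM across KPH2 2 to 4, and at 2.16 CPM in KPH2 1. The highest KP tumour held 35.2 times the level of the lowest, and the lowest tumour of each genotype was the one that was lowest for Il1b. The log2 fold change was -1.86 (SE 1.21), and 2.52 (SE 2.4) with the muscle score as a covariate. For Il6 it was -0.70 without KP 6 and -3.15 without KPH2 2. The deposited counts were 4 to 148 per tumour. Il6 lies on chromosome 5 from 30013114 to 30019975.

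Il6st, the gp130 chain shared by the family, was nearly level. It was at 297, 435, 327 and 399 CPM across KP 5 to 8, at 283, 351 and 314 CPM across KPH2 2 to 4, and at 333 CPM in KPH2 1. The groups overlapped, with a log2 fold change of -0.21 (SE 0.18). It lies on chromosome 13 from 112464070 to 112506860.

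Osmr, the oncostatin M receptor chain that pairs with gp130, was at 96.5, 224, 169 and 142 CPM across KP 5 to 8 and at 70.5, 56.4 and 60.5 CPM across KPH2 2 to 4. These 3 KPH2 tumours lay below every KP tumour, whereas KPH2 1, at 134 CPM, lay inside the KP range. The means were 158 ± 53.1 CPM (SD, n = 4) and 62.5 ± 7.22 CPM (SD, n = 3). The log2 fold change was -1.33 (SE 0.27), -0.97 (SE 0.34) with KPH2 1 and -0.78 (SE 0.42) with the muscle score as a covariate. Osmr lies on chromosome 15 from 6813568 to 6874968.

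Lif, the leukemia inhibitory factor, was at 1.63, 64.8, 16.9 and 9.81 CPM across KP 5 to 8, at 10.3, 10.8 and 11.3 CPM across KPH2 2 to 4, and at 27.5 CPM in KPH2 1. The KP tumours spanned a range of 39.7 times, which held every KPH2 tumour. The log2 fold change was -1.10 (SE 0.95), and its sign turned to 0.21 without KP 6, the tumour with the highest level. With the muscle score as a covariate it was 1.61 (SE 1.87). It lies on chromosome 11 from 4257568 to 4272514.

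Vcam1, the only member with a higher mean in KPH2 2 to 4, was at 85.3, 145, 107 and 136 CPM across KP 5 to 8 and at 238, 235 and 301 CPM across KPH2 2 to 4. The groups did not overlap over these 7 tumours. KPH2 1, at 44.7 CPM, was the lowest of all 8. The means were 118 ± 27.3 CPM (SD, n = 4) and 258 ± 37.2 CPM (SD, n = 3), and the log2 fold change was 1.12 (SE 0.21), 0.79 (SE 0.48) with KPH2 1 and 1.49 (SE 0.29) with the muscle score as a covariate. Vcam1 lies on chromosome 3 from 116110020 to 116129688.

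Icam1 went the other way. It was at 31.4, 24.2, 24.0 and 27.0 CPM across KP 5 to 8, at 13.4, 18.1 and 16.6 CPM across KPH2 2 to 4, and at 22.4 CPM in KPH2 1. All 4 KPH2 tumours lay below every KP tumour, KPH2 1 by the narrowest margin. The means were 26.7 ± 3.46 CPM (SD, n = 4) and 16.0 ± 2.4 CPM (SD, n = 3), a log2 fold change of -0.74 (SE 0.18), or -0.60 (SE 0.19) with KPH2 1. Icam1 lies on chromosome 9 from 21015940 to 21028814. The ratio of Vcam1 to Icam1 per length of exon was 1.46 to 13.3 over the 8 tumours.

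**Figure D1:**
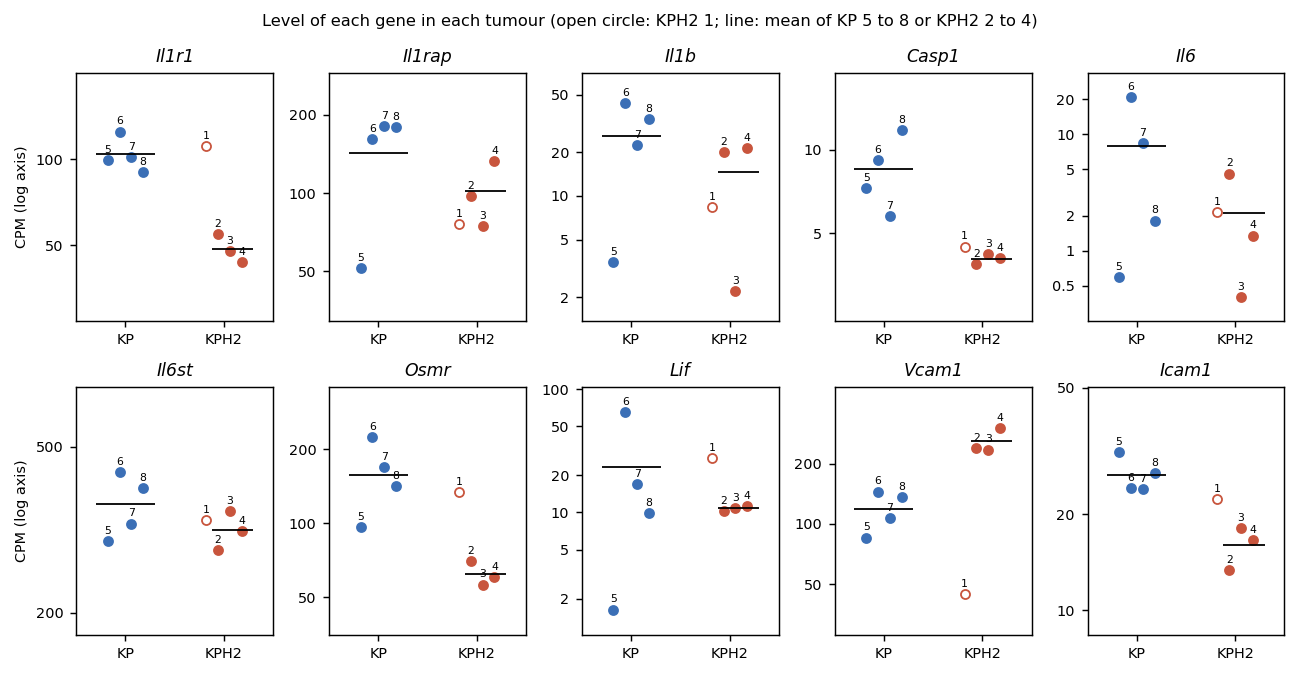
Level of each of the 10 genes in CPM (log axis) in each tumour, with the tumour's number beside its point, filled for the 7 tumours compared and open for KPH2 1, and the group mean as a line. Il1r1, Casp1, Osmr and Icam1 are lower and Vcam1 higher in KPH2 2 to 4 with no overlap, and KPH2 1 sits among the KP tumours for Il1r1 and Osmr.

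Over 7 tumours, all 10 members passed the filter on low counts, 9 had negative log2 fold changes and the median was -0.95, beside -0.02 over all genes tested. Groups did not overlap for 4 lower members, where 8.15% of all genes tested were lower in that way, and for 1 higher member, where 8.73% were higher. Across all 8 tumours 2 members, Casp1 and Icam1, were lower with no overlap, beside 4.39% of all genes. The count of members past the adjusted p was 3 (2 lower and 1 higher), beside the 1.96% above. Since these values chose the members, nothing is read from these counts. KPH2 1 lay inside the KP range for 7 members and below it for 3, which were Casp1, Vcam1 and Icam1.

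**Figure D2:**
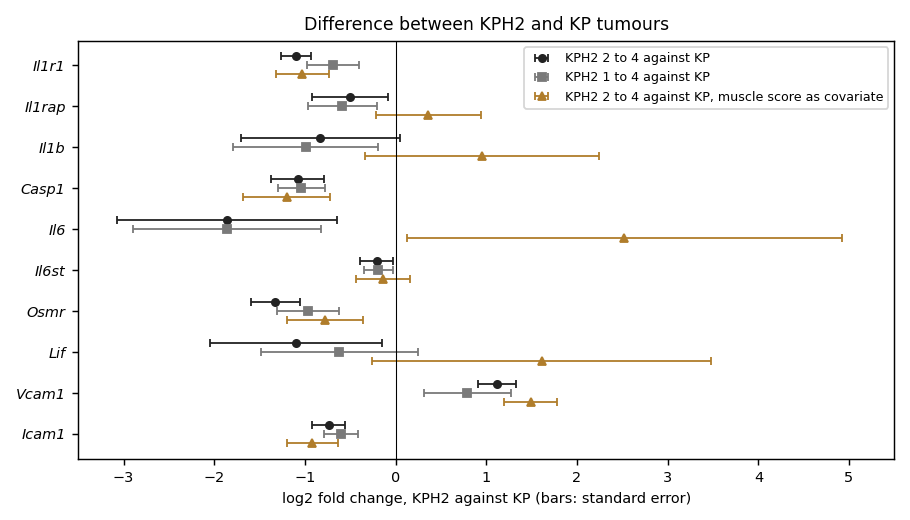
Log2 fold change of KPH2 against KP for each of the 10 genes, with standard errors, over 7 tumours (circles), over all 8 (squares) and over 7 with the skeletal muscle score as a covariate (triangles). Il1r1, Casp1, Il6st, Osmr and Icam1 keep values below 0 and Vcam1 above 0 in all 3 fits, while Il1rap, Il1b, Il6 and Lif change sign with the covariate.

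Compared between genes, levels were divided by the length of the exons, since longer transcripts give more reads. Over the 8 tumours the median was 40.5 CPM per kilobase for Vcam1, 38 for Il6st, 21.0 for Osmr, 15.5 for Il1r1, 15.3 for Il1b, 13.4 for Il1rap, 9.15 for Icam1, 3.43 for Casp1, 2.73 for Lif and 1.74 for Il6. The shared chain Il6st was above Osmr in 8 of 8 tumours and Osmr above Il1r1 in 8 of 8. Icam1 was above Casp1 in 8 of 8 tumours. Other neighbours in this order changed places between tumours: Vcam1 was above Il6st in 3 of 8 (KPH2 2 to 4), Il1r1 above Il1b in 4 of 8, Il1b above Il1rap in 4 of 8, Il1rap above Icam1 in 6 of 8, Casp1 above Lif in 4 of 8 and Lif above Il6 in 4 of 8. Il1r1 was above the decoy receptor Il1r2 in 8 of 8 tumours, by 4.55 to 28.2 times per length. Il6st was above the IL-6 binding chain Il6ra in 8 of 8, by 5.70 to 15.4 times.

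**Figure D3:**
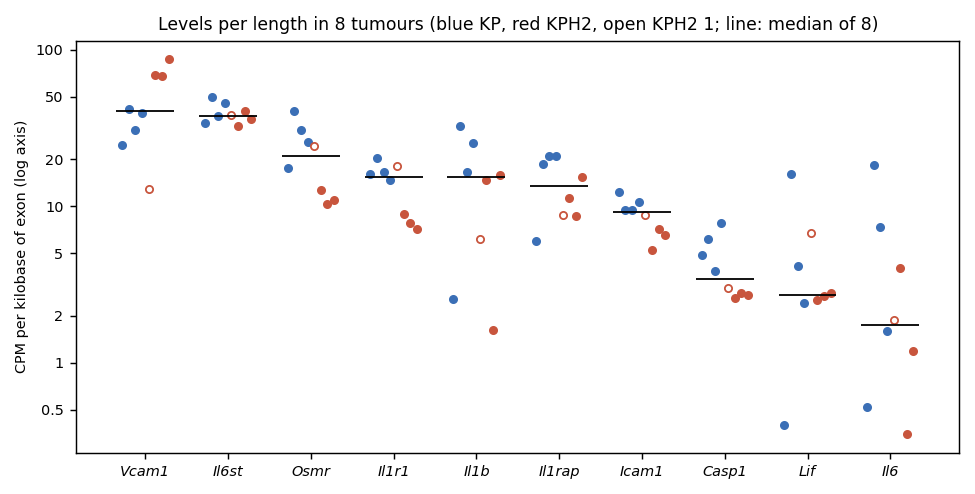
Level of each gene in CPM per kilobase of exon (log axis) in each of the 8 tumours, ordered by the median. Il6st spans a narrow range, Il6 and Il1b span wide ones in both genotypes, and Lif spans a wide one in KP.

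The stretch before the transcription start holds the binding sites of inducible factors, and RefSeq windows of GRCm38.p6 were available for 9 of the 10 members. In the 250 bases before the start, the NF-kB letters GGNNNTTCC were found on either strand for 3 members (in 15.7% of all 32851 windows). The STAT letters TTCNNNGAA were found for 1 member (7.02% of windows), the AP-1 letters TGANTCA for 2 (6.75%) and the hypoxia response core ACGTG for 3 (16.6%). The windows of Icam1, Il6 and Casp1 are shown as examples that hold these letters, which are in capitals, and they end at the base before the annotated start of the gene. They lie at chr9:21015690-21015939, chr5:30012864-30013113 and chr9:5298267-5298516, all on the plus strand.
Icam1: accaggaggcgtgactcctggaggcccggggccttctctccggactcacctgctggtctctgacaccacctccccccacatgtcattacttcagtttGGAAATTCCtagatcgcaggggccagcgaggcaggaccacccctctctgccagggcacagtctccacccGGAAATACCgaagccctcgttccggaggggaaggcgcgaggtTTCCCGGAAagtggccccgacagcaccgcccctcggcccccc
Il6: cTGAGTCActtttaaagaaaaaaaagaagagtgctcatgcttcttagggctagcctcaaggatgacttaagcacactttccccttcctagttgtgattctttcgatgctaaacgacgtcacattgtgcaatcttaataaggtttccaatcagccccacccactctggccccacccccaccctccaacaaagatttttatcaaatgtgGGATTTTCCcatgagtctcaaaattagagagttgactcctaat
Casp1: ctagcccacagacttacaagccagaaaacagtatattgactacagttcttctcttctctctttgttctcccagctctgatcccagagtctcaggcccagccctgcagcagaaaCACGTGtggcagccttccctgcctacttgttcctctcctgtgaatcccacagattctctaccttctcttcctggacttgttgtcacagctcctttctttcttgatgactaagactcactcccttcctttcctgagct

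In Icam1 the capitals mark NF-kB matches that begin 153 and 84 bases before the start and a STAT match 42 bases before it. In Il6 they mark an AP-1 match 249 bases and an NF-kB match 43 bases before the start. In Casp1 they mark the hypoxia core, read on both strands of 1 palindrome. A match describes letters and not a bound site.

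Other receptors of the IL-1 and IL-18 family lie beside Il1r1 on chromosome 1. RefSeq places 18 other genes within 500000 bases of it, of which 13 are in the counts and 10 were tested. These neighbours were looked at after their values were seen. Beside Il1r1, at -1.10, the 5 receptor genes among them had negative log2 fold changes, with Il1r2 at -0.47 (SE 0.62), Il1rl2 -1.47, Il1rl1 -2.11, Il18r1 -1.08 and Il18rap -1.70. The other 5, Map4k4, Slc9a4, Slc9a2, Mfsd9 and Tmem182, had positive ones of 0.36, 0.29, 2.73, 0.37 and 2.21, though Slc9a4 stood at -0.08 with KPH2 1 and Il1r2 at 0.99 (SE 1.01) with the muscle score as a covariate. Of the neighbours, Il1rl2 passed the adjusted p as lower by edgeR, and 0 passed it as higher (2 at an unadjusted p under 0.05, 1 by DESeq2).

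Il1rl1, the receptor of IL-33, was at 268, 118, 93.4 and 124 CPM across KP 5 to 8 and at 66.5, 9.51 and 29.0 CPM across KPH2 2 to 4. KPH2 1, at 367 CPM, was the highest of all 8 tumours, and the log2 fold change with it was -0.35. For Il1rl1, as for Il1r1, KPH2 2 to 4 lay below every KP tumour and KPH2 1 did not. Il18rap in this region and Osmr elsewhere had the same pattern. Of all genes tested, 8.15% had KPH2 2 to 4 below every KP tumour.

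**Figure D4:**
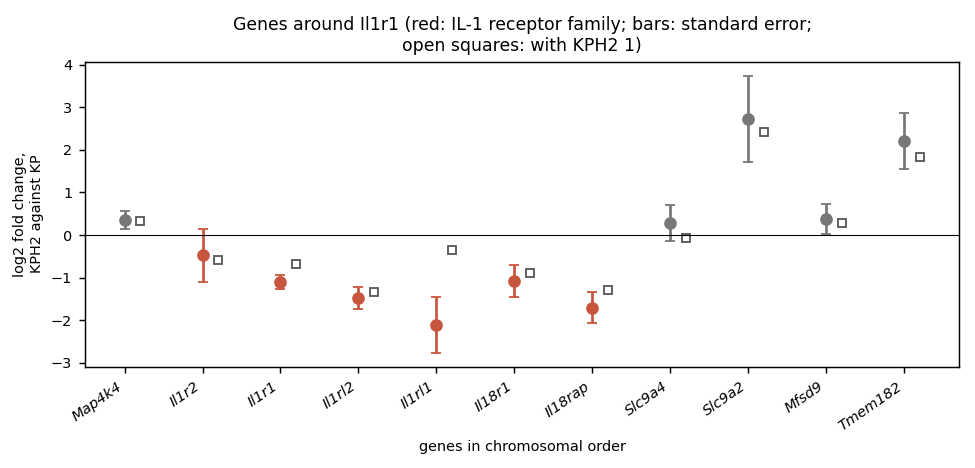
Log2 fold change of KPH2 against KP (circles with standard errors over 7 tumours, open squares with KPH2 1) of Il1r1 and its 10 tested neighbours in chromosomal order. Il1r1 and the other 5 receptor genes, in red, lie below 0 and the other 5 above it over 7 tumours.

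The genes around the members in their pathways were put in 6 lists holding 102 genes, of which 96 were tested. The lists were chosen with earlier results of these data known, so their counts are a description and nothing is read from them. By edgeR, 3 fell (Il1rl2, Irak3 and Ptgs2) and 2 rose (Itgax and Ezr), beside 1.96% of all genes tested. Over 7 tumours, 5 higher and 26 lower list genes had an unadjusted p under 0.05. With KPH2 1 included 0 passed (26 at an unadjusted p under 0.05). Of all genes tested over 7 tumours, 7724 were lower and 7143 higher. Over all genes tested, an unadjusted p under 0.05 was reached by 1264 higher and 1376 lower genes of 14867 over 7 tumours, and by 2172 of 14805 with KPH2 1. Of the IL-1 family, 15 of 16 genes were tested, 13 had lower and 2 had higher levels and the median log2 fold change was -0.48. Il1rl2, the receptor of IL-36, fell by 1.47 on the log2 scale (SE 0.26, adjusted p = 0.0355), and all 4 KPH2 tumours lay below every KP tumour. The ligand Il1a had a log2 fold change of 1.45 (SE 0.53, adjusted p = 0.198), from 0.297 to 1.41 CPM in KP and 1.53 to 3.16 CPM in KPH2 2 to 4. KPH2 1, at 0.240 CPM of Il1a, lay below every KP tumour, and the counts of Il1a were low, at 3 in KPH2 1. The antagonist Il1rn and the decoy Il1r2 were at -0.50 (adjusted p = 0.691) and -0.47 (adjusted p = 0.753).

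In the IL-1 relay, 16 of 16 genes were tested, 9 lower and 7 higher, with a median of -0.07. Irak3, an inhibitor of IL-1 receptor signalling, fell by 1.21 on the log2 scale (SE 0.22, adjusted p = 0.0387), from 11.1 to 15.7 CPM in KP to 4.80 to 6.54 CPM in KPH2 2 to 4. KPH2 1 was at 5.43 CPM for Irak3. The smallest p among the higher genes was that of Tab3, at 0.31 (SE 0.17, adjusted p = 0.387).

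Of the IL-6 family 11 of 14 genes were tested and 0 passed the edgeR test (4 at an unadjusted p under 0.05, 2 by DESeq2), with 8 lower, 3 higher and a median of -0.31. The receptor Il11ra1 was at -1.28 (SE 0.31, adjusted p = 0.0747) and Il6ra at -0.60 (SE 0.25, adjusted p = 0.265). Lifr was at -0.42 (adjusted p = 0.432), the ligand Osm at -0.18 (adjusted p = 0.921) and Ctf1 at 0.58 (adjusted p = 0.511). Of 12 JAK and STAT3 relay genes, 0 passed the edgeR test (1 at an unadjusted p under 0.05, 1 by DESeq2), 10 were lower and 2 higher, and the median was -0.21. Stat3 was at -0.19 (adjusted p = 0.581), its inhibitor Socs3 at -0.01 (adjusted p = 0.994), Cebpd at -1.67 (SE 0.54, adjusted p = 0.160) and Jak2 at 0.21 (adjusted p = 0.604).

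Of 22 genes that NF-kB and STAT3 are known to switch on, 21 were tested, 15 lower and 6 higher, with a median of -0.35. Ptgs2, the inducible prostaglandin synthase, fell by 3.11 on the log2 scale (SE 0.61, adjusted p = 0.0491), from 44.7 to 195 CPM in KP to 6.42 to 14.6 CPM in KPH2 2 to 4. KPH2 1 held 83.8 CPM of Ptgs2, inside the KP range, and with it the log2 fold change was -1.74 (adjusted p = 0.366). Junb had the smallest p among the higher genes, at 0.54 (SE 0.33, adjusted p = 0.439).

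Of 22 partners of Vcam1 and Icam1 in leukocyte adhesion, 21 were tested, 8 lower and 13 higher, with a median of 0.06. Ezr, which links the tails of adhesion proteins to actin, rose by 1.56 on the log2 scale (SE 0.20, adjusted p = 0.0173). It was at 31.6, 37.2, 36.9 and 33.4 CPM across KP 5 to 8 and at 79.7, 95.6, 77.8 and 134 CPM across KPH2 1 to 4, so that KPH2 1 lay with its genotype. Itgax, an integrin chain of dendritic cells and macrophages, rose by 1.24 (SE 0.19, adjusted p = 0.0239) over 7 tumours. KPH2 1, at 10.8 CPM, lay inside the KP range of 9.88 to 15.1 CPM for Itgax, and the macrophage markers are given above. Itgb2, the common chain of the integrins that bind ICAM-1, was at -0.74 (SE 0.18, adjusted p = 0.0853), Itga4, a chain of the integrin that binds VCAM-1, at 0.04 (adjusted p = 0.954) and the endothelial selectin Sele at -0.85 (adjusted p = 0.595).

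**Figure D5:**
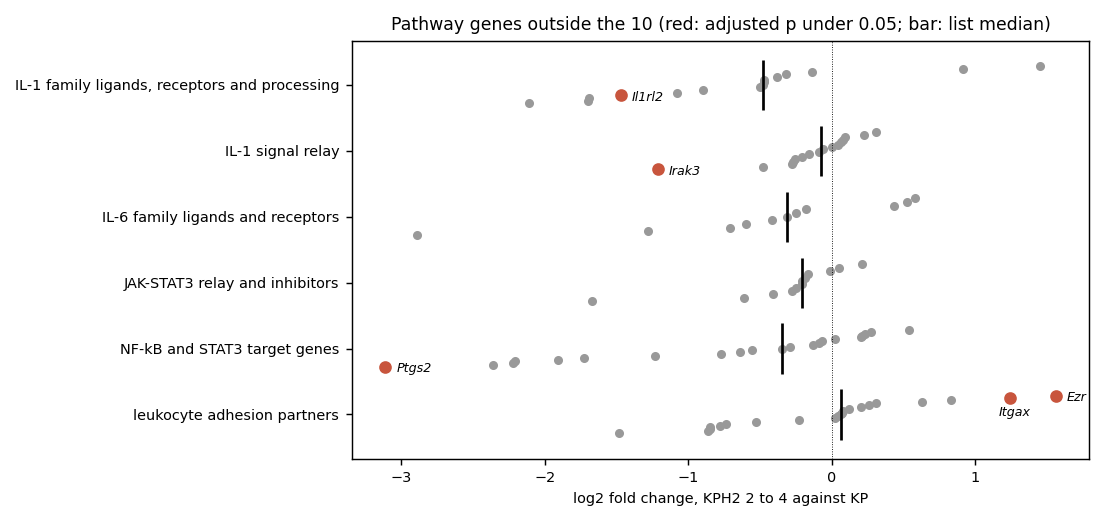
Log2 fold change of KPH2 2 to 4 against KP for each tested gene of the 6 pathway lists, outside the 10 genes, with genes past an adjusted p of 0.05 in red and the list median as a bar. The 5 red points are Il1rl2, Irak3 and Ptgs2 below 0 and Itgax and Ezr above it.

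With each tumour left out in turn, Ezr passed in 7 of 7 fits, Itgax in 2 and Il1rl2, Irak3 and Ptgs2 in 1 each, and the count over the 6 lists was 1 without KP 6, KP 7, KPH2 2, KPH2 3 or KPH2 4, 2 without KP 8 and 11 without KP 5.

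The 3 members with the largest fold changes were Il6, Osmr and Vcam1, and the genes with the most similar pattern were found by the root mean square difference in centred log2 CPM over the 8 tumours. For Il6 these were the chemokines Ppbp (0.30), Cxcl2 (0.54) and Cxcl3 (0.54), which like Il6 were highest in KP 6 and, for Ppbp and Cxcl2, lowest in KPH2 3. For Osmr they were Lilrb3 (0.15), Itgb3 (0.23) and Man1a (0.23). For Vcam1 they were the predicted genes Gm10804 (0.20) and Gm10419 (0.24) and Slc9a3r1 (0.23), a scaffold protein that binds ezrin. Several of these genes were near the floor, so few reads lie behind their patterns. Gm10804 was at 0.799 to 4.28 CPM, Gm10419 at 0.16 to 1.47, Ppbp at 0.0 to 10.3 and Cxcl3 at 0.0 to 10.6. Slc9a3r1 was at 5.42, 6.51, 7.26 and 8.75 CPM across KP 5 to 8, at 18.9, 13.2 and 17.7 CPM across KPH2 2 to 4 and at 3.12 CPM in KPH2 1, the lowest of all as for Vcam1.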

How the data were processed

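RNA from fixed sections of 8 UPS tumours (KP 5 to 8 and KPH2 1 to 4) was sequenced, 1 library per tumour. A further allele that both groups share is not reported here. Per the labels and the study's methods, CASAVA 1.8.2, STAR 2.4 on GRCm38 and HTSeq 0.6.1 were used, and unique alignments were counted per RefSeq gene. The authors deposited raw counts per gene, and log2 values from the regularized log (rlog) of DESeq2 1.6 over 7 and over 8 tumours. The rlog shrinks values toward each gene's mean, most for low counts. The study's methods name 3 knockout and 4 wild-type tumours, its results other numbers.

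Counts were fitted in R 4.3.3 with edgeR 4.0.16 (TMM, minimum count 10, minimum total count 15, robust quasi-likelihood test, no covariate) over KP 5 to 8 and KPH2 2 to 4, with Benjamini-Hochberg adjustment over all genes tested. The biological coefficient of variation was 0.313 (0.347 over 8 tumours). The scripts were tested on simulated data. The closest libraries, KP 6 and KP 8, had a chi-square statistic of 30.4 for each degree of freedom over genes with at least 20 counts, so each was counted as a sample. CPM used TMM library sizes over all 8 tumours, and log2 CPM for likeness a prior count of 2. Lengths were the union of exons of GENCODE transcripts that carry a RefSeq accession, in place of RefSeq exons. RefSeq windows and positions came from GRCm38.p6, and Vcam1 had no window.

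The members and lists were chosen with earlier results of these data known. Named besides the members were, in each list, every gene past the adjusted p and that with the smallest p in each direction, 11 genes of the IL-1, IL-6 and adhesion pathways, the 3 genes most like each of the 3 members with the largest fold change, and Epas1. Il11 and the genes beside Il1r1 were named after their values were seen, and Ccl2 was also named outside this rule. The alternatives were all 8 tumours, DESeq2 size factors, no filter on low counts, DESeq2 1.42.0, the mean of the muscle markers as a covariate, each tumour left out, and the rlog values (the 7-tumour table was added after seeing the data).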

Additional observations from a re-analysis of the deposited data

Results flagged for a closer look

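Among 20 groups of 4 tumours (10 genes in each genotype), 3 held 1 tumour far from the other 3, and chance flags about 1 in 20 groups, a rate that need not hold for genes selected on these levels. KPH2 1, which the study had left out, gave 2 of the 3. Il1r1 in KPH2 1, at 111 CPM, stood above the other KPH2 tumours at 43.6 to 54.7 CPM. Lif in KPH2 1, at 27.5 CPM, stood above the others at 10.3 to 11.3 CPM. Il1rap in KP 5, at 51.5 CPM, stood below the other KP tumours at 161 to 181 CPM.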

How the results depend on the processing

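The members were selected on these values, and the lists were chosen with earlier results of these data known. Their counts past the threshold below describe those choices and are not evidence. Of 140 alternatives to the members' fold changes 15 moved by more than 1 SD, 0 were called reversed and 5 changed sign. With all 8 tumours 1 gene was higher and 0 lower past the adjusted p, with 0 members and 0 genes of every list, and Il1r1 and Vcam1 stood at -0.69 and 0.79. DESeq2 called 615 genes higher and 560 lower, 5 members, and 19 genes over the lists (4 IL-1 family, 1 relay, 2 IL-6 family, 1 JAK-STAT3, 5 NF-kB and STAT3 targets, 6 adhesion). With DESeq2's size factors in place of TMM 2 members passed in place of 3. Without the filter on low counts 2 IL-1 family genes and 0 targets passed. With the muscle covariate 3 genes were higher and 0 lower, and 0 members and 0 list genes passed (Ezr at 2.03 with an edgeR adjusted p of 0.0501, Il1rl2 at -1.61, Itgax at 1.17, Irak3 at -0.82, Ptgs2 at -2.44). In that fit Il1rap, Il1b, Il6 and Lif turned to 0.36 (SE 0.58), 0.95 (SE 1.29), 2.52 (SE 2.4) and 1.61 (SE 1.87), with Osmr at -0.78 and Vcam1 at 1.49. The authors' rlog, with KPH2 2 to 4 set against KP, gave -0.85 for Il1r1 and -0.70 for Casp1 in the values made from 8 tumours. In the values made from 7 it gave -0.69, -0.51, -0.82, 0.75 and -0.44 for Il1r1, Casp1, Osmr, Vcam1 and Icam1. The cause was not tested.

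With each tumour left out, genes called higher ran from 43 to 183 and lower from 12 to 166 (lowest without KPH2 2, highest without KP 5). Members called ran from 0 (without KP 7, KPH2 2, KPH2 3 or KPH2 4) to 3, with 1 without KP 6 or KP 8, and list genes from 1 to 11, with IL-1 family 0 to 2, relay 0 to 1, IL-6 family 0 to 1, JAK-STAT3 0 to 0, targets 0 to 3 and adhesion 1 to 4. Fold changes ran from -1.19 to -1.0 (Il1r1), -0.77 to -0.32 (Il1rap), -1.21 to -0.32 (Il1b), -1.22 to -0.88 (Casp1), -3.15 to -0.70 (Il6), -0.29 to -0.11 (Il6st), -1.50 to -1.12 (Osmr), -1.49 to 0.21 (Lif), 1.0 to 1.23 (Vcam1) and -0.83 to -0.62 (Icam1). No paired analysis was possible because KP and KPH2 tumours carry different replicate numbers. Il6 rests on 4 to 148 counts per tumour.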

Other observations

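Il11, a further gp130 cytokine, was looked at after its values were seen. It was at 1.11, 4.67, 7.86 and 3.77 CPM across KP 5 to 8, at 0.720, 0.200 and 0.789 CPM across KPH2 2 to 4 and at 15.2 CPM in KPH2 1, the highest of all (log2 fold change -2.89 over 7 tumours, edgeR adjusted p = 0.0882). Ccl2, a chemokine for monocytes, also stood outside the rule for named genes. It was at 75.2, 121, 77.8 and 174 CPM across KP 5 to 8 and at 44.6, 45.8, 18.6 and 37.2 CPM across KPH2 1 to 4. All 4 KPH2 tumours lay below every KP tumour, as for 4.39% of all genes tested over 8 tumours. The log2 fold change of Ccl2 over 7 tumours was -1.73 (edgeR adjusted p = 0.0745).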
